A study of Mus musculus with 2 samples.

Results

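The inflammatory cytokine genes described here are Tnf, Il1a, Il1b, Il1rn, Il18, Il12a, Il12b, Il23a, Il6 and Il10, chosen by their symbols in the GENCODE M21 annotation and not by their levels. They are 10 of 55536 annotated genes, and all 10 were found in the gene tables and in both kinds of transcript table. The study measured RNA bound to chromatin in macrophages that were cultured from bone marrow of C57BL/6J mice. Total RNA of this fraction was sequenced after removal of ribosomal RNA. All samples belong to 1 group, the cells at 0 minutes of lipid A at 100 ng/ml, and it has 2 replicates, made from 250 ng of RNA (replicate 1) and 500 ng (replicate 2). No stimulated or untreated group was analysed here, so no contrast and no p-value exists, and all values describe the levels that these libraries hold before stimulation. The labels give both replicates the same donor entry and neither age nor sex, so the spread between them may be technical.

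Lipid A, the membrane anchor of endotoxin, is the ligand that Toll-like receptor 4 senses. Its signal reaches NF-kB and other transcription factors, which then bind at cytokine genes, and macrophages are a main source of tumour necrosis factor and of interleukins 1, 6, 12 and 10 after such a signal. Some of these genes are known for a response within minutes, with promoters that are open before the signal, and others for a response that needs chromatin remodelling and new protein first. RNA on chromatin is close to its site of synthesis, so its level lies nearer to transcription than that of whole-cell RNA, but RNA polymerase itself was not measured, and a paused polymerase would not show in these tables.

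The macrophage label was checked against markers. Levels are given in TPM, counts divided by transcript length and scaled to a fixed sum. All 8 macrophage markers were at 1 TPM or more in each replicate (median 63.7 TPM). Of 35 markers of 8 other kinds of cell, 1 did so, the dendritic cell gene Zbtb46, and 20 had no read. The summed level of each of these 8 lists stayed between 0 and 2.45 TPM in the gene table. The second transcript table put 6 of the 35 markers at 1 TPM or more in both replicates, among them Siglech (2.07 and 2.11 TPM), Mpo (1.15 and 1.64 TPM) and Cd3g (1.10 and 1.23 TPM), 3 genes named after their values were seen. The gene tables held 10933708 and 14168886 counts on annotated genes, so that a transcript of 1 kb at 1 TPM rested on 10.4 counts in replicate 1 and 15.5 in replicate 2. Cytokine genes at such levels rest on few reads, and each TPM below has a 95% Poisson interval that covers counting error only.

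The promoters of some of these genes are shown, since their levels at rest are the subject. The windows of Il18, the highest gene by mean TPM, and of Il12a, the lowest, were searched too but are not printed. RefSeq windows of 300 bases on GRCm38.p6, from 250 before to 50 after an annotated start, were at hand for 8 of the 10 genes, with 11 windows in all. Capitals mark TATAAA, the TATA box, and GGG and CC with any 5 bases between them, the spacing of a kappaB site of NF-kB, on either strand. Tnf (chr17:35201958-35202257), Il1a (chr2:129309923-129310222) and Il1b (chr2:129371090-129371389) are read on the minus strand, and Il6 (chr5:30012864-30013163), Il12b (chr11:44399813-44400112) and the upstream start of Il1rn (chr2:24336610-24336909) on the plus strand.
Tnf: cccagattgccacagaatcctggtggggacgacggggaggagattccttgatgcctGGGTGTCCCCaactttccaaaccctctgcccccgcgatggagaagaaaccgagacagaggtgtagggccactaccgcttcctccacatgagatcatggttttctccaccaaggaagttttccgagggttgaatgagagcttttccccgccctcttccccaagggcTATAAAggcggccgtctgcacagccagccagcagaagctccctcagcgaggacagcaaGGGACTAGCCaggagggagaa
Il1a: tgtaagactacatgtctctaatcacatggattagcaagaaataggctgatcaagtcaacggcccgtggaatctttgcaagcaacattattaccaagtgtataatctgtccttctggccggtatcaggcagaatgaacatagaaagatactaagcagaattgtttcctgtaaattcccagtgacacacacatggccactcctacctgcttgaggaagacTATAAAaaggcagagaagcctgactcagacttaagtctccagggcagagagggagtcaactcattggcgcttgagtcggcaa
Il1b: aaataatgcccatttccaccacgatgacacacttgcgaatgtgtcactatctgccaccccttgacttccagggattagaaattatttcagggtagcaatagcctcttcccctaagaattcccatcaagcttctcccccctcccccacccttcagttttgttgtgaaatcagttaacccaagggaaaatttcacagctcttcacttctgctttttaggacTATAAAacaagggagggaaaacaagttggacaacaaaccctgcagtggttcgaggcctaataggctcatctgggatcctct
Il6: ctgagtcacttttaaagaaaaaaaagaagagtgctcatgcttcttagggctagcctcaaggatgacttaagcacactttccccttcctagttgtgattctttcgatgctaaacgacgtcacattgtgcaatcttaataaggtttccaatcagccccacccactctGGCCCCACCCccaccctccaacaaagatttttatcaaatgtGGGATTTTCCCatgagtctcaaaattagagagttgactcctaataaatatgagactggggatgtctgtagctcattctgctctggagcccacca
Il12b: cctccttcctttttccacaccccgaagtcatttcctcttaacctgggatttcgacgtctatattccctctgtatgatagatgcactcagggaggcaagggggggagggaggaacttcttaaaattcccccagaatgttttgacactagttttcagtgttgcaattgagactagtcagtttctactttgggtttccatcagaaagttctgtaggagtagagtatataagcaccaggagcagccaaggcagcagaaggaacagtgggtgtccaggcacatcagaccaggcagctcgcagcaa
Il1rn upstream start: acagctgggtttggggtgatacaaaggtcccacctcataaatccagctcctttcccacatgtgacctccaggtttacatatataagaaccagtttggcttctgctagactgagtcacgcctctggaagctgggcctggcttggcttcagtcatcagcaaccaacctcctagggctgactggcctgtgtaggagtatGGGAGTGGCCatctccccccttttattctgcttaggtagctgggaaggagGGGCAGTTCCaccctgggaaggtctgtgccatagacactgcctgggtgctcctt

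TATAAA began 29 bases before the start of Tnf, 32 before that of Il1a and 31 before that of Il1b, the usual place of a TATA box. It was in 13.6% of all 32851 promoter windows. No exact TATAAA stood in the windows of Il6, Il12a or Il12b. The match in the Il18 window, on the other strand, lay 175 bases before the start. The start of that window lies 127 bases before the first annotated start of Il18 in GENCODE. No window covered the later starts of Il18, and the division of its counts among the starts depends on the table, as given below. The search took the exact letters TATAAA only, so near matches were not counted. Il12b held a near match in the same region before its start as the matches of Tnf, Il1a and Il1b. The lack of an exact match therefore does not show that Il12b lacks a TATA box. The kappaB spacing was in 50.8% of all windows, so a match is common. Il6 held the run GGGATTTTCC 44 bases before its start, and the windows of Il1a, Il1b, Il12b and Il18 held no match. The AP-1 element TGANTCA, in 7.81% of all windows, was in those of Il1a, Il6 and the upstream start of Il1rn. These are letters in a window and not measured binding. The ratio of observed to expected CpG was 0.436 for Tnf, above the median of 0.384 over all windows. It was below that median in the windows of Il1a (0.334), Il1b (0.202), Il6 (0.214), Il12b (0.232) and Il18 (0.101). The Il1rn windows were below it too, with 0.0457 at the upstream start and 0.333 and 0.259 further downstream. The annotated starts of Il12a differed, with 0.152 at the first and 0.682 at the second, 780 bases further on.

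The levels of the cytokine genes ran from several TPM to no read. Tnf, Il18, Il1a, Il1rn and Il1b, which encode tumour necrosis factor, interleukin 18, both interleukin 1 ligands and the antagonist of their receptor, reached 1 TPM in both replicates, 5 of 10 genes, where 46.7% of 22015 nuclear protein-coding genes did. Il10 stood at the threshold, and Il23a, Il12b, Il6 and Il12a were below it. A share of 50% is near that background. By their counting intervals, Tnf, Il18 and Il1a lay wholly above 1 TPM in both replicates, as did 44.1% of protein-coding genes. Il6, Il12a, Il12b and Il23a lay wholly below it, as did 43.7%. Il1b, Il1rn and Il10 had an interval that held 1 TPM in at least 1 replicate, so their side of the threshold is not settled at this depth.

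**Figure D1:**
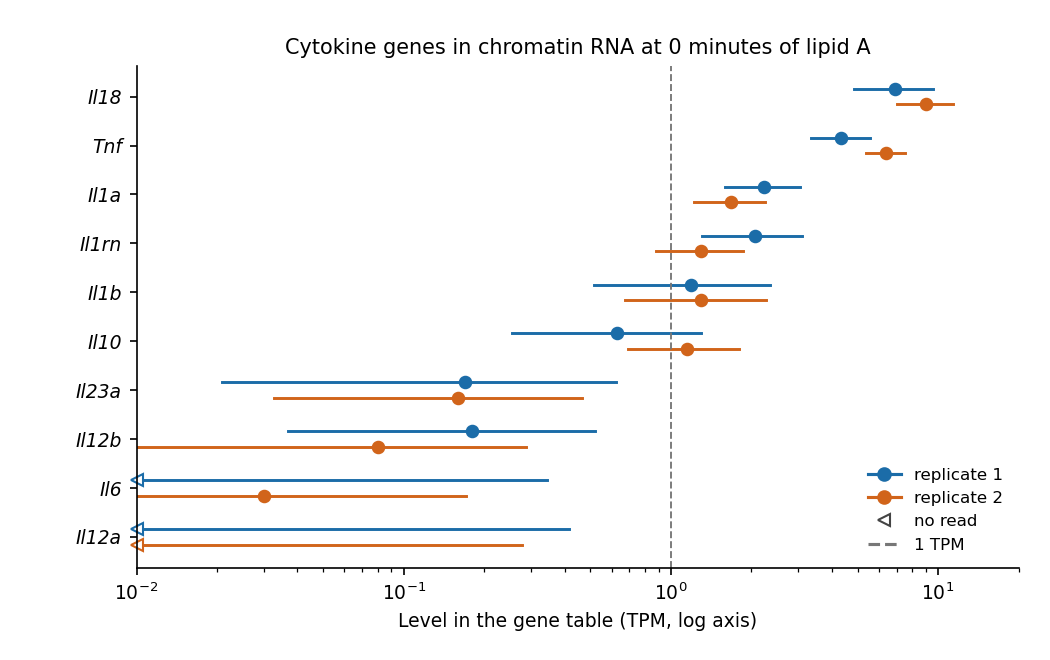
Level of each cytokine gene in the gene table (TPM, log axis) in replicates 1 and 2, with 95% Poisson intervals as lines, open triangles for a gene without a read, and the 1 TPM threshold as a dashed line. Il18 and Tnf lie to the right of the others, Il1a, Il1rn, Il1b and Il10 lie around 1 TPM, and the intervals of Il23a, Il12b, Il6 and Il12a end to the left of it.

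Tnf, the gene of tumour necrosis factor, an early and broad inflammatory signal, was the member with most counts. It lies on chromosome 17 (35199381 to 35202007, minus strand, mm10; ENSMUSG00000024401.14). It held 63 counts in replicate 1 and 138 in replicate 2, which gave 4.35 TPM (interval 3.34 to 5.56) and 6.38 TPM (5.36 to 7.53). The mean was 5.37 ± 1.44 TPM (SD, n = 2). It was higher than 66.7% of all protein-coding genes and, among those that reached 1 TPM, higher than 28.7%. All its counts were placed on Tnf-201, which encodes 235 amino acids, and none on the second annotated transcript.

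Of the interleukin 1 family, Il18 was the highest gene on the TPM scale. It encodes a cytokine that is made as an inactive precursor and cut by caspase-1, and lies on chromosome 9 (50554827 to 50581840, plus strand; ENSMUSG00000039217.13). It held 36 and 71 counts, or 6.90 TPM (4.83 to 9.55) in replicate 1 and 8.99 TPM (7.02 to 11.3) in replicate 2, with a mean of 7.95 ± 1.48 TPM. It had fewer counts than Tnf and a higher TPM, since its effective length was 504 and 509 bases, against 1399 and 1395 for Tnf. It was higher than 71.8% of protein-coding genes, and than 39.6% of those that reached 1 TPM.

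Il1a and Il1b encode the interleukin 1 ligands, both made as precursors, and share a stretch of chromosome 2 with 54.6 kb between them. Il1a (129299610 to 129309972, minus strand; ENSMUSG00000027399.1) held 40.1 and 45.0 counts, or 2.23 TPM (1.59 to 3.03) and 1.68 TPM (1.22 to 2.24). Il1b (129364570 to 129371139, minus strand; ENSMUSG00000027398.13) held 8 and 12 counts, or 1.19 TPM (0.514 to 2.34) and 1.30 TPM (0.674 to 2.28). The means were 1.96 ± 0.389 TPM for Il1a and 1.25 ± 0.0778 TPM for Il1b. Both Il1a values lay above both of Il1b in this column, but the intervals overlap in each replicate and other columns give another order. The posterior mean TPM was 2.04 and 1.58 for Il1a and 2.10 and 1.80 for Il1b. That column also gives 0.7 and 0.49 TPM to Il12a, a gene without a read, so it does not rest on reads alone. In the second transcript table the values overlap, with 2.01 and 2.49 TPM for Il1a and 1.68 and 2.74 TPM for Il1b. Which of them is higher is therefore not settled.

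Il1rn encodes the receptor antagonist that blocks both ligands. It lies on the same chromosome at 24336853 to 24351494 on the plus strand (ENSMUSG00000026981.15). With 23 and 30 counts it stood at 2.07 TPM (1.31 to 3.11) in replicate 1 and 1.30 TPM (0.879 to 1.86) in replicate 2, a mean of 1.69 ± 0.545 TPM. Its counts per library size hardly differed between the replicates, with a log2 ratio of 0.01 (interval -0.82 to 0.86). TPM divides by the effective length, which the table gives as 1072 bases in replicate 1 and 1483 in replicate 2.

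Il12b, Il12a and Il23a, of the interleukin 12 family, held few reads or none in the gene table. Il12b encodes p40, the chain shared by interleukins 12 and 23, Il12a the p35 chain of interleukin 12, and Il23a the p19 chain of interleukin 23. Il12b (chromosome 11, 44400063 to 44414033; ENSMUSG00000004296.14) held 3 and 2 counts, or 0.180 and 0.0800 TPM. Il23a (chromosome 10, 128296139 to 128298752, minus strand; ENSMUSG00000025383.2) held 2 and 3 counts, or 0.170 and 0.160 TPM. Il12a (chromosome 3, 68690644 to 68698547; ENSMUSG00000027776.12) had no read in the gene table or in either transcript table. A count of 0 allows up to 3 counts as a one-sided limit, which is 0.337 TPM for Il12a in replicate 1 and 0.226 TPM in replicate 2. The two-sided intervals used for the other values end at 0.415 and 0.278 TPM. Il12a was the 1 member without a read in either replicate, where 33.6% of protein-coding genes had none.

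Il6 and Il10, a pro-inflammatory and an anti-inflammatory cytokine gene, differed. Il6 (chromosome 5, 30013114 to 30019981, plus strand; ENSMUSG00000025746.11) had no read in replicate 1, where the two-sided interval ends at 0.344 TPM, and 1 count in replicate 2, or 0.0300 TPM with an interval that ends at 0.171 TPM. Il10 (chromosome 1, 131019845 to 131024974, plus strand; ENSMUSG00000016529.5) held 7 and 19 counts, or 0.630 TPM (0.254 to 1.30) and 1.15 TPM (0.692 to 1.79), a mean of 0.890 ± 0.368 TPM. Both Il10 values lay above both of Il6, and Il10 reached 1 TPM in replicate 2 alone.

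From highest to lowest mean TPM in the gene table the order was Il18, Tnf, Il1a, Il1rn, Il1b, Il10, Il23a, Il12b, Il6 and Il12a. Of 45 pairs of members, 41 had both replicates of one gene above both of the other. The 4 pairs that overlapped were all neighbours in the order: Il1a with Il1rn, Il1rn with Il1b, Il23a with Il12b, and Il6 with Il12a. The middle of the order depends on the table. In the second transcript table Il1rn, at 2.92 and 3.32 TPM, lay above Il1a, at 2.01 and 2.49 TPM, and the mean of Il23a, 2.19 TPM, passed that of Il10, 1.32 TPM. By posterior mean TPM, which gives Il12a 0.7 and 0.49 TPM without a read, Il1rn (2.76) and Il1b (1.95) passed Il1a (1.81). Il18 and Tnf kept the 2 highest means in both of these alternatives. Among the 5 genes at 1 TPM or more, the mean of Il18 was 6.38 times that of Il1b. The median of the 10 genes was 1.07 TPM, against 0.720 TPM for all nuclear protein-coding genes. The 5 genes stood low among genes that reached the threshold, whose median was 11.1 TPM: Il1a was higher than 7.24% of them, Il1rn than 5.05% and Il1b than 1.11%.

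The annotation gives the 10 genes 31 transcripts, and for several genes the reads were placed on more than the full coding form. For Il1b, the first transcript table put 4.8 and 5 counts on Il1b-201, which encodes the 269-residue precursor, and 3 and 7 counts on Il1b-203, a form with a retained intron at the 5′ end of the gene. Its retained-intron share was 53.8% of TPM in replicate 1 and 77.7% in replicate 2, from these few reads. In Il1rn the share was 3.87% and 2.31%, and in Il23a 0% and 25%, the last from 1 count. Tnf, Il1a, Il6, Il10, Il12b and Il18 have no annotated retained-intron transcript, so reads from their introns have no place in these tables.

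Il1rn has start sites 8.44 kb apart. The downstream one leads to Il1rn-201, with 178 codons and the form that carries a signal peptide for secretion, and the upstream one to Il1rn-204, with 159 codons. Each start has further annotated transcripts, which are counted with it. The counts of a start are thus estimates summed over whole transcripts, and reads at the start itself were not counted. In the first transcript table the upstream start held 11.5 and 23.2 counts and the downstream start 11.5 and 6.78. In the second transcript table the upstream start held 16.3 and 33.7 counts and the downstream start 60.5 and 65.5. The upstream start was the higher one in replicate 2 of the first table, and the downstream start in both replicates of the second. On the TPM scale the upstream start was at 0.490 and 0.670 and the downstream start at 1.58 and 0.630 in the first table, while in the second the upstream start was at 0.598 and 0.643 and the downstream start at 2.32 and 2.67. Per length the downstream start was thus the higher one except in replicate 2 of the first table, where the starts were about equal. In the first table most of the downstream TPM stood on Il1rn-206, a form without a reading frame (1.22 and 0.49 TPM). Il1rn-201 was at 0.36 and 0.14 TPM there, below Il1rn-204 at 0.41 and 0.64 TPM. In the second table Il1rn-201 (1.129 and 1.253 TPM) lay above Il1rn-204 (0.2245 and 0.6243 TPM).

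Il18 has annotated starts at 50554827, 50565374 and 50575273. The middle and the last of these both lead to forms of 192 codons. In the first transcript table the last start held 25.4 and 45.7 counts, the first 10.6 and 21.4, and the middle one 0 and 3.91. In the second transcript table the middle start held 14.6 and 86.2 counts, the first 51.0 and 69.5, and the last 47.4 and 39.3. The transcript of the first start, with a reading frame of 78 codons, was given counts in both replicates of both tables. These too are estimates for whole transcripts, so use of that start was not shown.

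**Figure D2:**
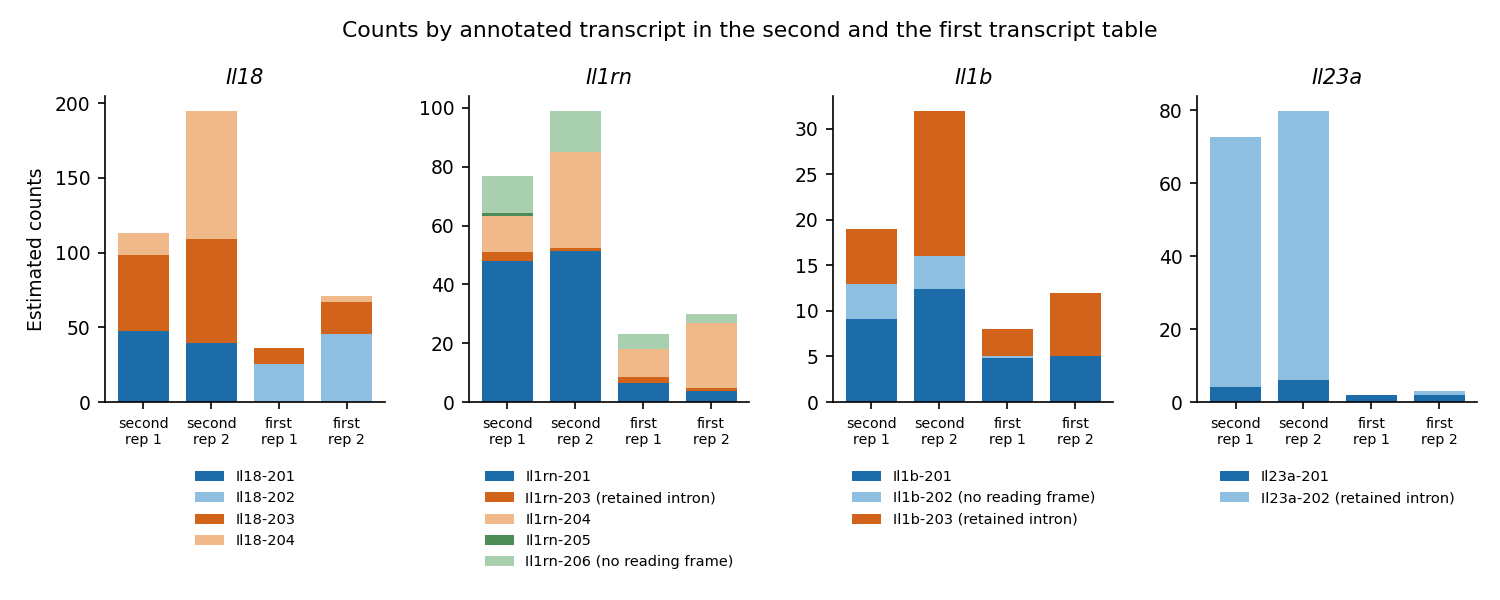
Estimated counts by annotated transcript for Il18, Il1rn, Il1b and Il23a, as stacked bars for replicates 1 and 2 (rep 1, rep 2) in the second transcript table and in the first, each gene with its own linear axis from 0. The bars of Il23a in the second table consist almost wholly of the retained-intron transcript Il23a-202, with 68.5 and 73.9 counts, and those of Il18 and Il1rn are divided differently in the 2 tables.

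The second transcript table, made from the same reads by another method, gave most of these genes more reads. Over all genes it held 1.75 times as many counts in replicate 1 and 1.74 times in replicate 2. Tnf had 118 and 253 counts there, 1.85 times those of the gene table, which is close to the median ratio of 1.79 (quartiles 1.52 to 2.34) over 12140 protein-coding genes whose mean was 5 counts or more. Il1a was at 2.19 times, Il1b at 2.55, Il10 at 2.62, Il18 at 2.88 and Il1rn at 3.32. Of the 6 members whose mean was 5 counts or more, 5 were thus at least 2 times higher, as were 36.9% of protein-coding genes.

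Il23a differed most between the tables. The second transcript table gave it 72.5 and 79.9 counts, or 2.03 and 2.34 TPM, against 2 and 3 counts in the gene table. Nearly all of them, 68.5 and 73.9, stood on Il23a-202, a retained-intron transcript (128296662 to 128298752) that had 0 and 1 count in the first transcript table. The coding transcript Il23a-201 had 4.07 and 6 counts in the second table. With this, 6 of 10 members reached 1 TPM in both replicates of the second table, where 55.7% of protein-coding genes did. Il12b had 6.27 and 15.3 counts there and stayed under 1 TPM, with 0.159 and 0.401 TPM. Il6 kept 0 and 1 count and Il12a kept none. For Il6 and Il12a, then, all tables gave levels at the floor, while the level of Il23a rests on the choice of table.

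**Figure D3:**
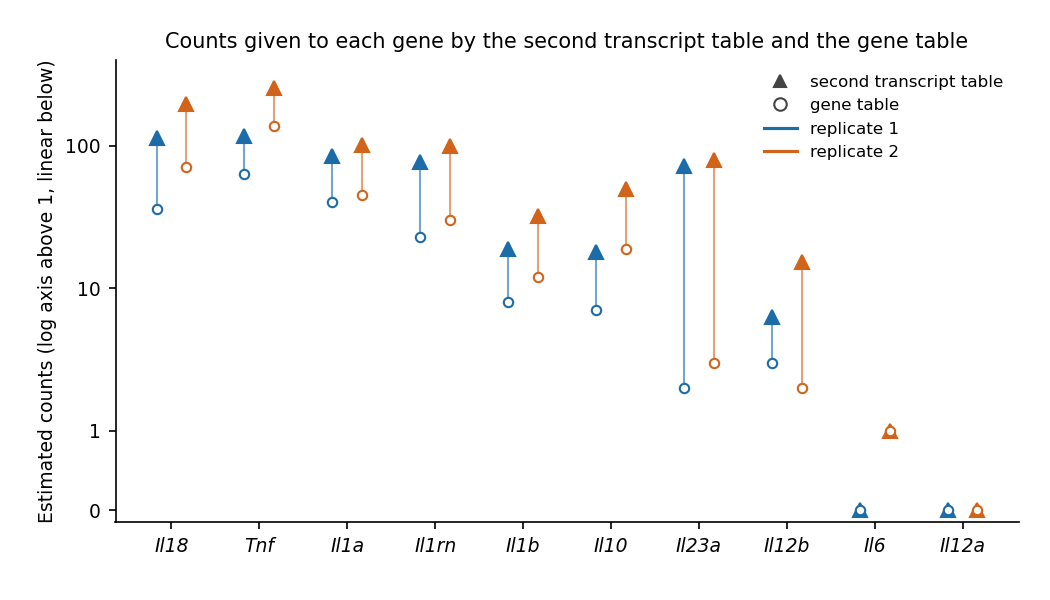
Estimated counts of each cytokine gene (log axis above 1, linear below) in the second transcript table (triangles) and in the gene table (open circles), for replicates 1 and 2. The line is longest for Il23a, and Il6 and Il12a have their circle on their triangle at 0 or 1 count.

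Some reads of these loci could belong to another gene, and none of the sources used here gives whether the libraries kept strand. Il1a shares 222 of its 1974 exon bases with Gm14023, a non-coding gene on the other strand. Gm14023 held 35.9 and 45.0 counts, and those of Il1a and Gm14023 summed to whole numbers, 76 and 90, so reads were divided between them. The counts of Il1a are therefore uncertain. Il1b overlaps the antisense gene Il1bos over 25 exon bases. Il1bos held 271 and 353 counts in the second transcript table, against 0 and 3 in the gene table. Bco2 and Tex12 overlap the span of Il18 on the other strand without a shared exon base. Of words of 31 bases, Tnf, Il1b, Il6, Il10, Il12a and Il18 shared none with the transcripts of another gene. Il23a-202 shared 13 of 1694 with 210 other genes, and Il1rn-201 and Il1rn-204 each shared 32 with 2723 others. Whether these shared words carry the reads of the second table was not tested.

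The neighbours of the cytokine genes ran from none to abundant. Tnf lies 1.16 kb from Lta and 3.06 kb from Ltb, which encode the lymphotoxins of the same family. Lta had no read, and Ltb had 0 and 6 counts, or 0.180 ± 0.255 TPM. Il23a, at 0.165 ± 0.00707 TPM, lies between Stat2 (173.7 ± 30.8 TPM, 3.29 kb away), a transcription factor gene of interferon signalling, and Pan2 (12.0 ± 0.537 TPM, 4.58 kb away), which encodes a subunit of a poly(A) deadenylase. Both were higher than Il23a in each replicate. Il10 has Il19, of its own family, on the lower side without a read, and Mapkapk2, a kinase gene of the p38 pathway, at 11.8 ± 0.283 TPM on the other. Next to Il1rn, the family member Il1f10 had no read and Psd4 stood at 27.5 ± 4.94 TPM. Around Il12a neither Schip1 (0.0650 ± 0.0354 TPM) nor 1110032F04Rik (no read) reached the threshold. Il12b had Ublcp1 (6.39 ± 1.68 TPM) at 40.5 kb and Adra1b (no read) at 499 kb. Il18 lies between Pts (30.7 ± 0.134 TPM), a gene of tetrahydrobiopterin synthesis, and Sdhd (4.10 ± 0.537 TPM), a subunit gene of succinate dehydrogenase. Beyond the pair of Il1a and Il1b lie Ckap2l (0.710 ± 0.198 TPM) and F830045P16Rik (0.230 TPM in each replicate). Il6 had Tyms (2.67 ± 0.283 TPM) at 38.2 kb and Dnajb6 (95.4 ± 0.728 TPM) at 195 kb.

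**Figure D4:**
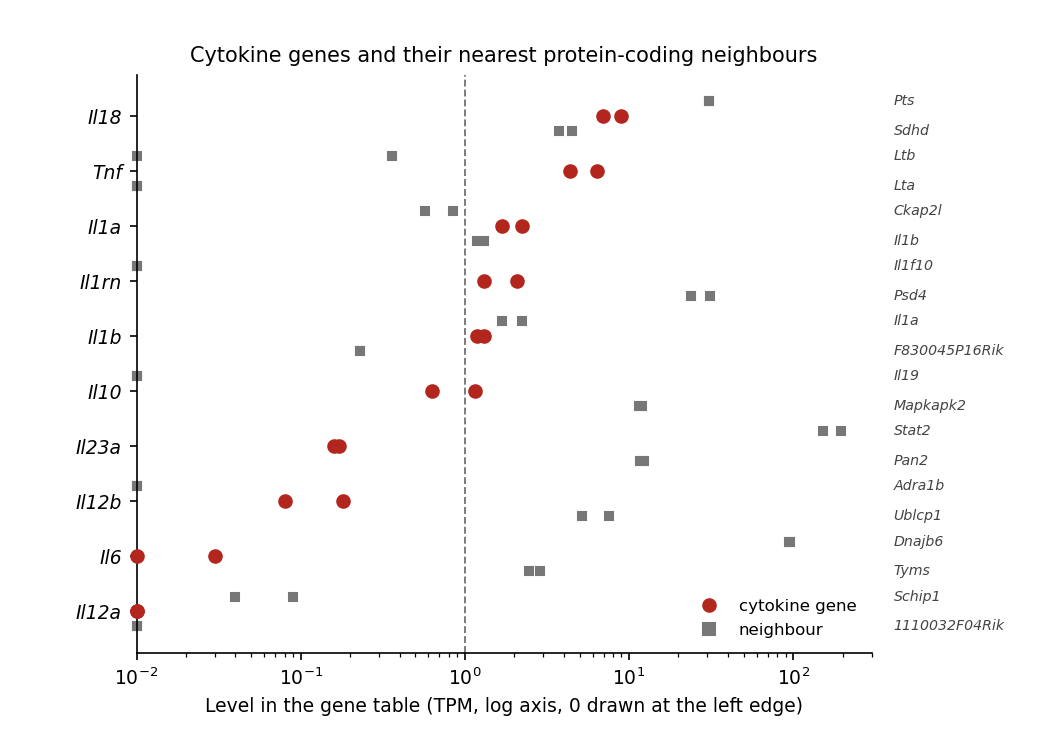
Levels in both replicates (TPM, log axis, 0 drawn at the left edge) of each cytokine gene (circles) and of the nearest protein-coding gene at lower and higher coordinates (squares, above and below the circle, named at the right). Il23a lies far to the left of Stat2 and Pan2, and Tnf to the right of Ltb and Lta.

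RNA of all the listed factors known to act at these genes was detected, and their proteins were not measured. All 15 transcription factor genes were at 1 TPM or more in both replicates (median 18.4 TPM). Of all nuclear protein-coding genes 46.7% were, which is the share to set beside each list in this paragraph. Irf8, a lineage factor that binds with PU.1, was the highest at 126.7 ± 22.6 TPM, and Maf, an activator of Il10, followed at 84.3 ± 7.40 TPM. Cebpb, an activator of Il6 and Il1b, was the lowest at 5.14 ± 1.56 TPM. All 8 genes of cytokine mRNA decay were detected (median 22.4 TPM), from Rc3h2 (roquin-2, 45.8 ± 0.297 TPM) and Zfp36l2 (29.8 ± 5.33 TPM) to Zfp36l1 (12.3 ± 2.61 TPM). So were all 11 genes of cytokine maturation and release (median 27.4 TPM). Gsdmd, the pore through which mature interleukin 1 leaves the cell, stood at 82.2 ± 2.53 TPM, Capns1, a subunit of the calpains that cut the Il1a precursor, at 50.2 ± 5.25 TPM, and Pycard, the inflammasome adaptor ASC, at 12.8 ± 0.728 TPM. In the gene table Pycard and Zfp36l1, the lowest genes of their lists, lay above Il18, the highest cytokine gene, in both replicates, and Cebpb lay below it. In the second transcript table Zfp36l1 (6.541 and 12.25 TPM) lay below Il18 (8.005 and 13.63 TPM) in both replicates. Pycard (8.039 and 12.56 TPM) lay above Il18 in replicate 1 and below it in replicate 2 there.

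Of 14 receptor genes of these cytokines 8 were detected (57.1%, median 1.82 TPM), a share near the 46.7% of all nuclear protein-coding genes, and the second transcript table gave 10. The interleukin 10 receptor chains led: where Il10 was at 0.890 ± 0.368 TPM, Il10rb was at 61.9 ± 0.799 TPM and Il10ra at 53.4 ± 0.332 TPM. Il1r2, the decoy receptor of interleukin 1, Il23r and Il18r1 had no read in the gene table. Among 17 other genes of the same cytokine families 4 were detected, led by Osm (oncostatin M, 5.26 ± 1.02 TPM) and Ebi3 (2.14 ± 1.08 TPM), whose product pairs with that of Il27, and 11 had no read, Il33 and Il19 among them. Over all nuclear protein-coding genes 46.7% were detected and 33.6% had no read. Of 12 cytokine genes of lymphoid and mast cells none was detected, with 9 at no read. The highest, Il4, rested on 3 counts in each replicate (0.730 ± 0.170 TPM), and Il13 on 2 (0.165 ± 0.0495 TPM).

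**Figure D5:**
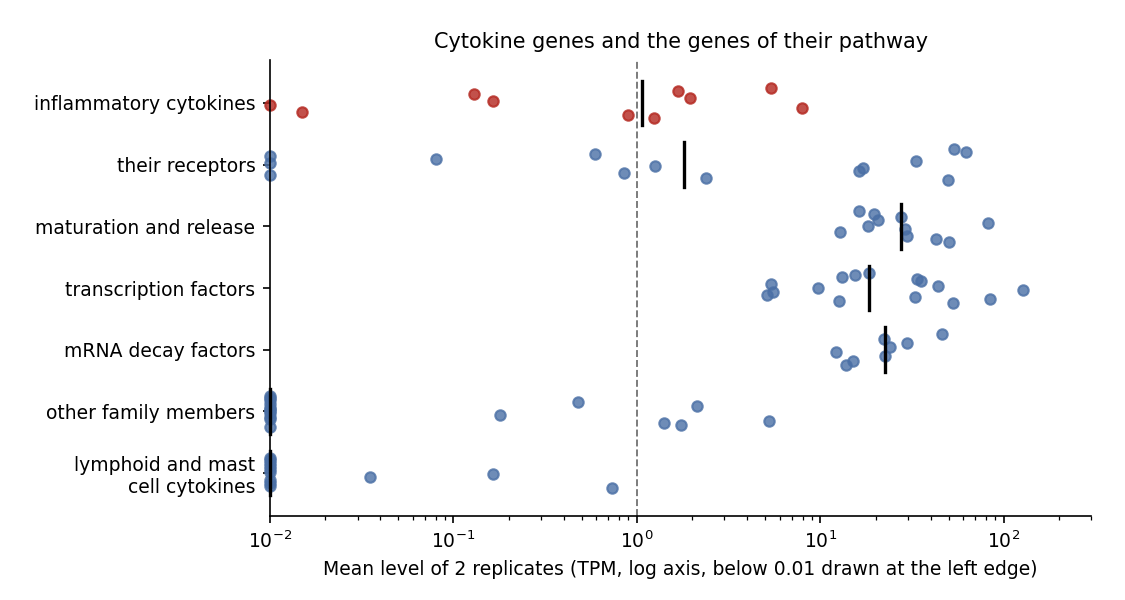
Mean TPM of 2 replicates (log axis, values below 0.01 drawn at the left edge) for each gene of 7 lists, with the median of each list as a black bar and 1 TPM as a dashed line; the vertical spread of points within a list has no meaning. The cytokine genes span the range from no read to 7.95 TPM, while the maturation, transcription factor and decay lists lie to the right of 1 TPM throughout.

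The replicates differed for Tnf beyond counting error. Per library size its counts were 1.69 times higher in replicate 2 than in replicate 1, a log2 ratio of 0.75 (95% interval 0.32 to 1.21). For Il18 the ratio was 0.60 (0.01 to 1.23), an interval that holds 0 once TMM or median-of-ratios scaling is used. These were 2 of the 6 members whose mean was 5 counts or more, and 33.5% of protein-coding genes at that depth had an interval without 0, so the libraries differ widely beyond counting. Il10 was at 1.02 (-0.25 to 2.56), Il1b at 0.20 (-1.20 to 1.71) and Il1a at -0.20 (-0.85 to 0.45), and their intervals hold 0. In the second transcript table Tnf was at 0.74, Il18 at 0.42 and Il10 at 1.09. The RNA input differed between the replicates too, and its part in these differences cannot be told apart from that of the replicate.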

How the data were processed

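Chromatin-bound RNA of 1 group was sequenced in 2 libraries. Per the deposited notes, an alignment to transcripts (mm10, annotation M21) gave the gene and first transcript tables, while the second was derived from reads with an index. Their columns have the layouts of RSEM and kallisto; no source used here names tools or versions. Expected counts, as deposited, are estimated numbers of reads, and the deposited TPM values divide them by effective length. Entries outside the annotation (0.338% and 0.270% of counts) were left out.

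Genes were matched by identifier. Detection meant at least 1 TPM in each replicate. Intervals are exact Poisson for counts and exact conditional binomial for log2 ratios, with a pseudocount of 0.5, at 95%; a count of 0 was given a limit of 3 counts. Neither covers more than counting error, as reads that carry no molecular identifier are not independent. Counts were rounded for edgeR 4.0.16 (TMM factors) and DESeq2 1.42.0 (size factors) in R 4.3.3, used for scaling alone. Other steps used scipy 1.17.1, pandas 2.3.3 and numpy 2.4.6 under Python 3.11.15. Of these, the log2 ratios, both kinds of interval and the motif search were tested on simulated data. Promoter letters are from RefSeq. All 10 members were named, and in each pathway list the 2 highest and the lowest gene by mean TPM, and the nearest protein-coding neighbours. Of the tied genes without a read in the lists of other cytokines, Il33 and Il19 alone were named, after values were seen, and the rest counted. The members and lists were chosen with earlier results of these data known. Alternatives are given in the closing section.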

Additional observations from a re-analysis of the deposited data

How the results depend on the processing

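With 5 members detected as the main value, a threshold of 2 TPM left 2, Tnf and Il18, and a rule that the whole counting interval lie at or above 1 TPM, chosen after seeing the data, left 3. The other alternatives gave 4 to 6, with Il10 or Il23a added or Il1b lost. The ratio of the highest to the lowest detected member, 6.38, was 4.95 in the second transcript table, 4.2 with the posterior mean TPM and 8.88 with TPM over nuclear protein-coding genes, which hold 26.2% and 24.6% of TPM. Without 1 replicate, it ran from 5.80 to 7.82, the detected members from 5 to 6, and those without a read from 1 to 2 (Il6 has its 1 count in replicate 2). The median retained-intron share was taken over Il1b, Il23a and Il1rn, since Il12a has such transcripts but no read. It was 12.5%, the value of Il23a, which rests on 1 count, and it ran from 3.87% to 25% without 1 replicate. In the second transcript table the median was 41.6%, the value of Il1b. The members whose replicates differed beyond counting error went from 2 to 1 with TMM scaling and to 1 with median-of-ratios size factors, which move the log2 ratio of all genes by 0.114 and 0.115; the call that was lost is that of Il18. Of 10 levels, 6 in the second transcript table lay above the main value by more than 1 SD and none lay below by as much. With the posterior mean TPM 5 did (Il12a 0.595 from no read), and the cause was not tested for either. With TPM over nuclear protein-coding genes 9 did (Tnf 21.3). This holds by construction, since each level is divided by the share of 26.2% or 24.6% and a level of 0 stays 0. The ordered pairs, 41, were 40 in the second transcript table and 42 with the posterior mean TPM; with 1 replicate they are 44, all untied pairs by construction. No paired analysis was possible because there is 1 group. Depth limits Il6, Il12a, Il12b and Il23a to upper bounds under 1 TPM in the gene table.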

Other observations

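Several cytokine and receptor genes without a read in the gene table had reads in the second transcript table, as Il23a had to a larger extent than its gene table count. The genes in this paragraph were chosen after their values were seen. Il18r1, a chain of the interleukin 18 receptor, was at 3.15 and 4.57 TPM there, and Il18rap, the other chain, at 6.58 and 8.85 TPM, with 0.560 and 0.620 TPM in the gene table. Il36g, a ligand of the interleukin 1 family that the annotation names Il1f9, was at 1.38 and 1.66 TPM, and Il17f at 1.06 and 2.81 TPM. Il4 was at 5.72 and 9.87 TPM in the second transcript table, with 0.850 and 0.610 TPM in the gene table. In the lists of lymphoid and mast cell cytokines the second table called 2 of 12 genes detected and the gene table none. In the second transcript table each gene named in this paragraph was higher in replicate 2 than in replicate 1. Which table lies nearer to the RNA was not tested.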
